A study of Homo sapiens with 6 samples.

Results

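The TNF superfamily pairs cell-surface or soluble ligands with receptors that share cysteine-rich repeats outside the cell. Receptors with an intracellular death domain can recruit FADD or TRADD and start caspase-8 signalling, most of the others bind TRAF adaptors and lead to NF-kB, and decoy receptors bind ligand without passing on the signal. In bone marrow stroma the family is best known for osteoprotegerin and RANK ligand, which set osteoclast formation, and for the sensitivity of cells to the death ligands FasL and TRAIL.

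The family was taken here as the protein-coding genes with a TNFRSF or TNFSF symbol plus TNF, FAS, FASLG, LTA, LTB, LTBR, CD40, CD40LG, CD27, CD70, EDAR and EDA2R, which gave 44 of the 58735 genes in the table. They comprised 17 ligands, 7 receptors with a death domain, 4 decoy or soluble receptors and 16 receptors grouped here as TRAF-binding. RNA was measured by non-stranded mRNA-seq in UE7T-9, a mesenchymal stem cell line from human bone marrow grown in DMEM, with 3 libraries of wild-type Control cells and 3 of SRRM4 KO cells. The SRRM4 KO cells carry a CRISPR v2 vector given by lentivirus, were selected with puromycin and are 1 clone raised from single cells, and complete loss of the protein was not obtained. The Control cells are labelled wild type, and the study raises alteration by lentivirus infection as a possibility for them too without saying what they received. Clone, vector and knockout cannot be told apart in any difference below. Nothing in the labels says that libraries of a group came from separate cultures, so p-values measure only the spread between these libraries.

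Libraries held between 21496117 and 23868323 counts, at which a count of 0 allows up to 3 counts, or 0.123 to 0.139 CPM (counts scaled by TMM to a library of 1000000), for counting error only. Control replicate 1 differed most from its group, with a chi-square per degree of freedom of 20.9 and 21.4 against the other 2 Control libraries, which gave 5.44 between them, so results that rest on it are given without it as well. SRRM4 had 0 counts in all 6 libraries, which gives no check of the knockout. Of 7 mesenchymal markers all were detected, and their summed level was 2171 to 2206 CPM in Control and 2092 to 2166 CPM in SRRM4 KO, although THY1, PDGFRB and VCAM1 were lower and CD44 higher. Of 12 leukocyte markers, 5 had no counts in any library and PTPRC had at most 2, and the summed level, mostly CD14, was 21.2 to 22.6 CPM in Control and 18.6 to 22.7 CPM in SRRM4 KO. The scarce ITGAM (5, 14 and 13 counts in Control, 0 in each SRRM4 KO library) and HLA-DRA (7, 11 and 9 against 0, 4 and 1) were lower in each SRRM4 KO library and were not tested by edgeR. With DESeq2, ITGAM had an adjusted p = 0.0015 and HLA-DRA 0.121. The 4 endothelial markers summed to 13.8 to 16.0 CPM in Control and 1.56 to 2.56 CPM in SRRM4 KO, mainly through TEK, which was called lower, while PECAM1 and CDH5 had at most 3 counts per library. The part of these marker differences in the results was not tested. In bulk samples, fewer cells that carry a transcript and less of it per cell cannot be told apart.

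Only 24 of the 44 genes had enough counts to be tested, and the other 20 had at most 19 counts in any library. Among the untested genes, TNF, FASLG, CD40LG, TNFSF14, EDAR and TNFRSF6B had no counts at all. The remaining ligands without a test were LTA, LTB, TNFSF8, TNFSF11, TNFSF13B and TNFSF18, each with at most 9 counts in any library. TNFSF11 (RANK ligand) had 3 counts in SRRM4 KO replicate 1 and none elsewhere. The 0 of TNFRSF6B, a soluble decoy for FasL, is uninformative, because 100% of its exon bases are shared with the read-through gene RTEL1-TNFRSF6B, which had 49 to 144 counts per library and which the counting could not separate from it.

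SRRM4 KO and Control were compared by edgeR's quasi-likelihood test over 15341 genes, and calls needed a Benjamini-Hochberg adjusted p under 0.05 together with a log2 fold change (log2FC, SRRM4 KO over Control) past 1 in either direction. By this rule 8 of the 24 tested family genes were higher and 4 were lower in SRRM4 KO cells. Over all 15341 genes tested, 5.45% were called higher and 7.14% lower. On the adjusted p alone 13 family genes were higher and 4 lower, against 20.7% and 20.9% of all tested genes, and 7 did not pass. Every SRRM4 KO library lay above every Control library in 13 of the 24 and below in 4, where 25.9% of all tested genes did so in each direction. The median log2 fold change of the 24 was 0.52, beside -0.01 over all genes tested. Of the 8 called higher, TNFRSF9 and TNFSF10 passed the filter on low counts only through SRRM4 KO, where they are high, and the other 6 and all 4 called lower passed it in each group. These shares therefore describe the 24 and not the family of 44. Without Control replicate 1 the called genes numbered 6 higher and 3 lower.

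**Figure D1:**
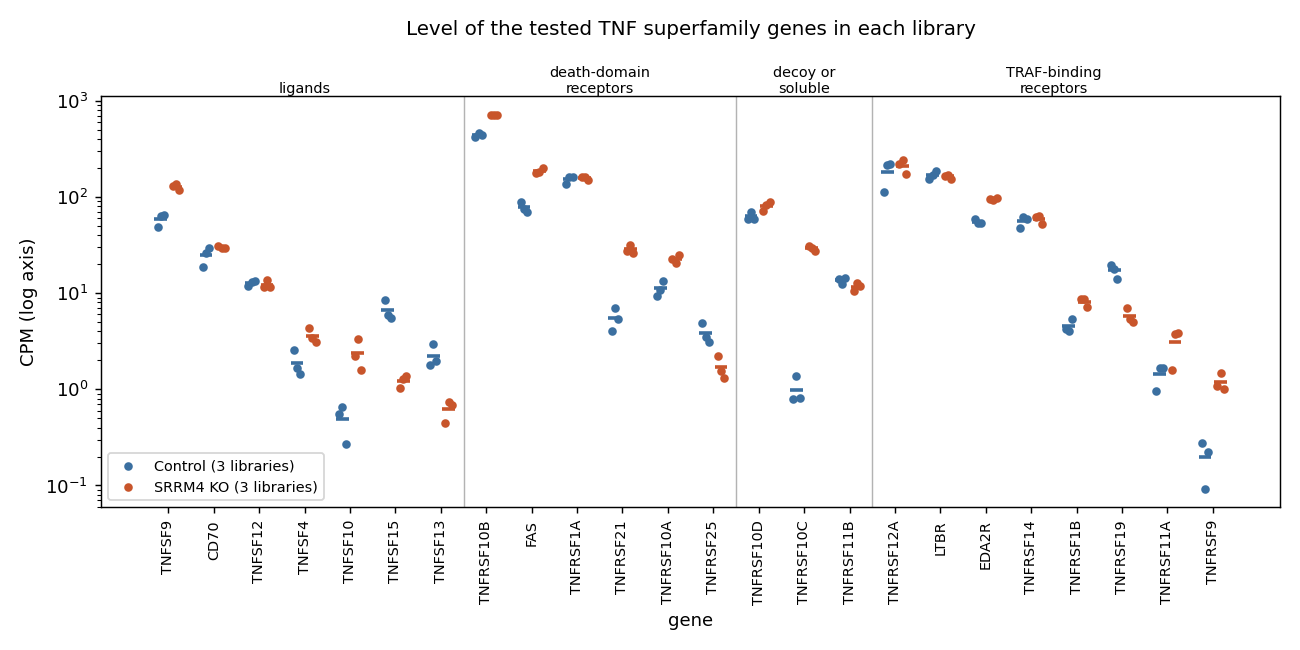
Level of the 24 tested TNF superfamily genes in CPM on a log axis, with 1 point per library, 3 Control libraries in blue and 3 SRRM4 KO libraries in orange, a bar at each group mean, and genes ordered by role. The 3 SRRM4 KO points of TNFRSF10C, TNFRSF21 and FAS lie clear above those of Control, and those of TNFSF15 lie clear below.

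The receptors for TRAIL (TNFSF10), which kills many transformed cells, gave the largest change among the tested family genes. TNFRSF10A (DR4) and TNFRSF10B (DR5) carry the death domain, TNFRSF10C is a decoy held to the membrane by a lipid anchor without any intracellular part, and TNFRSF10D is a decoy with a truncated death domain. All of them lie in a row on chromosome 8 (GRCh38), from 23020133 to 23225126. They share no stretch of 50 bases with one another in the GENCODE 29 transcripts, so reads of that length can be told apart.

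TNFRSF10C (ENSG00000173535; plus strand of chromosome 8, 23102590 to 23117437) had 17, 30 and 18 counts in Control and 693, 715 and 601 in SRRM4 KO. Reads of this decoy were thus few in each Control library and plentiful in each SRRM4 KO library. Its level went from 0.994 ± 0.345 to 29.3 ± 1.90 CPM (SD, n = 3), a log2FC of 4.87 ± 0.20 (SE, edgeR adjusted p = 1.02e-10), or 29.3-fold. With each library left out in turn it stayed between 4.73 and 5.19. Of its exon bases, 39.3% are also annotated to the noncoding genes AC107959.4 and AC107959.5, which had few and no counts, and AC107959.4 did not rise with it, at 7, 10 and 3 counts in Control and 4, 10 and 5 in SRRM4 KO.

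TNFRSF10A had 204, 230 and 302 counts in Control and 504, 498 and 543 in SRRM4 KO, with no overlap. Its log2FC of 1.01 ± 0.15 (SE, edgeR adjusted p = 7.49e-05) sat at the threshold and was 0.90 without Control replicate 1, 0.97 without Control replicate 2 and 0.93 without SRRM4 KO replicate 3. TNFRSF10A-AS1, an antisense gene that shares 7.59% of its exon bases, was also higher (log2FC 1.32), and the libraries carry no strand. AC100861.1, also on the opposite strand, shares 9.01% of the exon bases of TNFRSF10A and was not called (log2FC 0.16). TNFRSF10B, the most abundant family gene in CPM, had 9161, 9929 and 9876 counts in Control and 15767, 17268 and 15589 in SRRM4 KO. Its groups were far apart relative to their spread, yet the log2FC of 0.68 ± 0.069 (SE, edgeR adjusted p = 1.30e-06) stayed under the fold threshold. TNFRSF10D moved least of these receptors, from 62.7 ± 6.52 to 80.7 ± 8.44 CPM (SD, n = 3), a log2FC of 0.37 (adjusted p = 0.0111, edgeR). Its adjusted p was above 0.05 without Control replicate 3 (0.0566), SRRM4 KO replicate 2 (0.0516) or SRRM4 KO replicate 3 (0.0734, edgeR).

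Per kilobase of gene length, the RNA of all 4 TRAIL receptors together came to 108 ± 5.67 in Control and 184 ± 1.78 CPM per kilobase in SRRM4 KO (SD, n = 3). The decoys made up 16.7%, 18.1% and 15.9% of it in the Control libraries and 20.3%, 21.2% and 21.4% in the SRRM4 KO libraries. The SRRM4 KO libraries all lay above the Control libraries, by 4.06 percentage points on average, and the exact two-sided permutation test gave p = 0.10, the smallest that 3 against 3 libraries allow. TNFRSF10C alone went from 0.490% ± 0.145 to 8.54% ± 0.636 (SD, n = 3), while TNFRSF10B, the DR5 death receptor, remained the main TRAIL receptor RNA in each library. With counts summed without division by length the decoys took 12.1%, 13.2% and 11.6% in Control and 12.35%, 13.2% and 13.6% in SRRM4 KO. The groups then overlapped, the difference was 0.778 percentage points and the exact permutation p was 0.20, so the separation of the decoy share rests on weighing the genes by length. That weighing takes the full length of TNFRSF10C, of whose exon bases 39.3% are also annotated to other genes. How reads there were counted is not known, which leaves its level per kilobase uncertain.

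**Figure D2:**
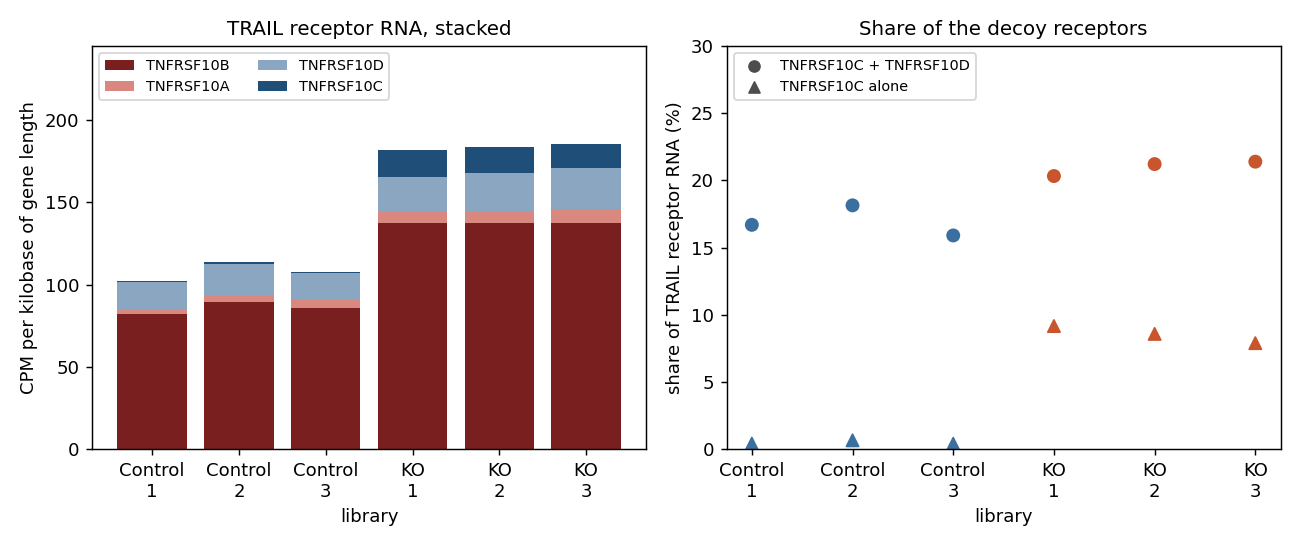
Left, CPM per kilobase of gene length of the TRAIL receptors stacked for each of the 6 libraries, and right, the percent of that sum taken by both decoys (circles) and by TNFRSF10C alone (triangles), blue for Control and orange for SRRM4 KO. The TNFRSF10C segment is barely visible in Control, near 0.5%, and takes 7.89% to 9.16% in SRRM4 KO.

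TRAIL itself, TNFSF10, was scarce in both groups. It had 12, 14 and 6 counts in Control and 49, 81 and 35 in SRRM4 KO, which do not overlap, and rose from 0.491 ± 0.198 to 2.37 ± 0.880 CPM (SD, n = 3). The log2FC was 2.27 ± 0.47 (SE, edgeR adjusted p = 0.00117). TNFSF10 passed the filter only through SRRM4 KO, with 2 of the 3 Control libraries reaching it, and was not tested when 10 counts were required in every library. TNFRSF11B (osteoprotegerin), a soluble receptor that binds RANK ligand and TRAIL, went from 13.6 ± 1.02 to 11.7 ± 1.18 CPM (SD, n = 3) and its groups overlapped (log2FC -0.22 ± 0.14 SE, edgeR adjusted p = 0.25).

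FAS, the receptor for FasL (ENSG00000026103; plus strand of chromosome 10, 88990582 to 89015785), had 1907, 1634 and 1570 counts in Control and 3958, 4442 and 4363 in SRRM4 KO. The groups did not overlap, and the libraries within each were close. The rise from 78.0 ± 9.01 to 186 ± 10.8 CPM (SD, n = 3) was a log2FC of 1.25 ± 0.096 (SE, edgeR adjusted p = 7.53e-08), and it ran from 1.18 to 1.35 with each library left out. ACTA2, smooth muscle actin, shares 8.93% of the exon bases of FAS on the opposite strand and moved the other way, from 826 to 86.5 CPM.

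TNFRSF21 (DR6), an orphan receptor with a death domain (ENSG00000146072; minus strand of chromosome 6, 47231532 to 47309905), had 88, 152 and 119 counts in Control and 615, 772 and 579 in SRRM4 KO. The groups were well separated, at 5.48 ± 1.502 and 28.5 ± 2.81 CPM (SD, n = 3). The log2FC was 2.38 ± 0.18 (SE, edgeR adjusted p = 5.62e-08), a 5.21-fold rise, and none of its exon bases are shared with another gene.

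The other death-domain receptors did not follow. TNFRSF1A, the main TNF receptor, had 2990, 3437 and 3635 counts in Control and 3586, 3927 and 3307 in SRRM4 KO. These overlapped, with a log2FC of 0.04 ± 0.087 (SE, edgeR adjusted p = 0.762). TNFRSF25 (DR3), the receptor of TL1A, went down from 105, 76 and 70 to 50, 38 and 29 counts, a log2FC of -1.17 ± 0.31 (SE, edgeR adjusted p = 0.0066). Without Control replicate 1 the value was -0.96, under the fold threshold. PLEKHG5, which shares 2.43% of its exon bases, was lower as well (log2FC -1.04). ESPN, on the opposite strand, shares 8.94% of the exon bases of TNFRSF25 and had at most 7 counts in any library. Of the 6 tested death-domain receptors 3 were thus called higher and 1 lower, beside 5.45% and 7.14% of all tested genes (EDAR, the other one, had no counts). Their summed level was 694 ± 25.4 CPM in Control and 1105 ± 5.39 CPM in SRRM4 KO (SD, n = 3), most of it TNFRSF10B.

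**Figure D3:**
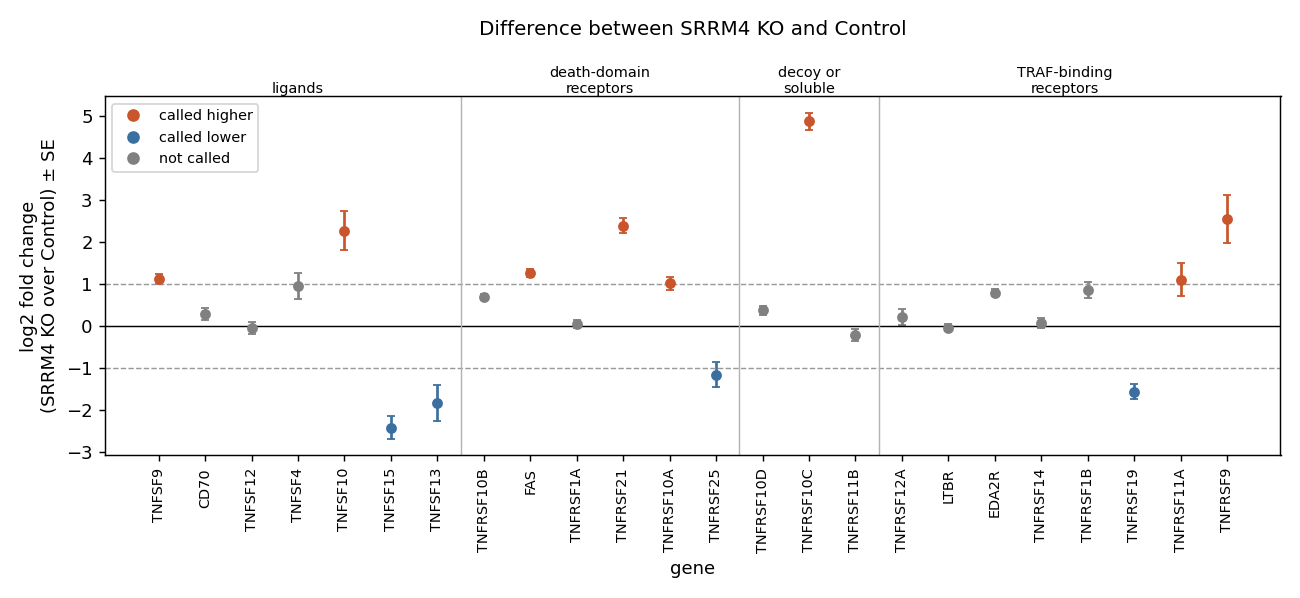
Log2 fold change of SRRM4 KO over Control for the 24 tested genes, with bars of 1 standard error, dashed lines at the fold threshold of 1 in each direction, and genes in the order of the plot of levels. Orange points were called higher (8), blue points lower (4) and grey points not called, and TNFRSF10C stands highest at 4.87.

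Among the ligands, TNFSF9 (4-1BB ligand, a costimulator of T cells; ENSG00000125657, plus strand of chromosome 19, 6530999 to 6535928) was the most abundant. It had 1058, 1370 and 1455 counts in Control and 2867, 3308 and 2630 in SRRM4 KO, without overlap. The level rose from 59.2 ± 9.03 to 128 ± 8.18 CPM (SD, n = 3), a log2FC of 1.11 ± 0.11 (SE, edgeR adjusted p = 1.02e-06), which was 0.99 without Control replicate 1. Its receptor TNFRSF9, normally a marker of activated T cells, had 6, 2 and 5 counts in Control and 24, 36 and 22 in SRRM4 KO. That was a log2FC of 2.55 ± 0.58 (SE, edgeR adjusted p = 0.00233) at a level of 1.19 ± 0.257 CPM (SD, n = 3) in SRRM4 KO, far under that of the ligand. No Control library of TNFRSF9 reached the filter, so the gene was tested only because it was high in SRRM4 KO, and it was not tested when 10 counts were required in every library.

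TNFSF15 (TL1A, the ligand of TNFRSF25; ENSG00000181634, minus strand of chromosome 9, 114784635 to 114806126) showed the largest fall among the tested family genes. Its counts were 184, 128 and 122 in Control and 23, 31 and 30 in SRRM4 KO, and the groups were far apart. The level fell from 6.63 ± 1.62 to 1.22 ± 0.171 CPM (SD, n = 3), a log2FC of -2.43 ± 0.27 (SE, edgeR adjusted p = 3.34e-06). Both members of the TL1A and DR3 pair were therefore lower, at low levels.

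TNFSF13 (APRIL, a B cell survival factor) had 39, 64 and 44 counts in Control and 10, 18 and 15 in SRRM4 KO, a log2FC of -1.84 ± 0.42 (SE, edgeR adjusted p = 0.00264). Its neighbour TNFSF12 (TWEAK) did not move with it, at 12.8 ± 0.863 and 12.3 ± 1.17 CPM (SD, n = 3; log2FC -0.05, adjusted p = 0.791). The read-through gene TNFSF12-TNFSF13 covers 55.5% of the exon bases of TNFSF13 and 29.4% of those of TNFSF12 and had 0 counts in each library, and how reads in the shared exons were counted is not known. No receptor of APRIL could be tested. TNFRSF13C, which binds BAFF, had 4 to 12 counts in Control and 0 to 11 in SRRM4 KO.

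TNFSF4 (OX40 ligand) and CD70, both costimulators of T cells, were measured with little or none of their receptors. TNFSF4 had 55, 36 and 32 counts in Control and 97, 83 and 68 in SRRM4 KO, a log2FC of 0.94 ± 0.30 (SE, edgeR adjusted p = 0.021), just under the fold threshold. It was called without Control replicate 1 (1.22) and without SRRM4 KO replicate 3 (1.04), and its adjusted p was above 0.05 without Control replicate 2 (0.0618), Control replicate 3 (0.0782) or SRRM4 KO replicate 1 (0.0964, edgeR). CD70 went from 24.7 ± 5.42 to 29.9 ± 0.631 CPM (SD, n = 3) and did not pass (adjusted p = 0.137), although its 3 SRRM4 KO libraries lay above those of Control. Its log2FC of 0.28 was 0.11 without Control replicate 1 and passed without Control replicate 3 (0.42, adjusted p = 0.0467, edgeR). CD27, the receptor of CD70, had 9, 19 and 2 counts in Control and 0, 1 and 1 in SRRM4 KO and was left out by the filter. The antisense gene CD27-AS1 covers 37.0% of the exon bases of CD27 and was lower too (log2FC -1.08).

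Of the TRAF-binding receptors, TNFRSF19 (TROY), known from hair follicle and neural development, fell. It had 430, 384 and 314 counts in Control and 155, 130 and 111 in SRRM4 KO, and went from 17.2 ± 2.92 to 5.78 ± 1.03 CPM (SD, n = 3), with a log2FC of -1.58 ± 0.18 (SE, edgeR adjusted p = 4.11e-06). It lies on chromosome 13, where the median over 272 tested genes was -0.27. Medians of other chromosomes with called genes were -0.24 on 9 (TNFSF15), -0.34 on 18 (TNFRSF11A) and 0.21 on 17 (TNFSF13). EDA2R (XEDAR), which binds an ectodysplasin isoform, had 1284, 1151 and 1190 counts in Control and 2109, 2272 and 2160 in SRRM4 KO. This tight rise of 0.79 on the log2 scale ± 0.088 (SE, edgeR adjusted p = 4.01e-06) did not reach the fold threshold, and the median over 525 tested genes of chromosome X was 0.32.

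TNFRSF1B (TNFR2) went from 4.57 ± 0.748 to 8.18 ± 0.873 CPM (SD, n = 3), a log2FC of 0.84 (adjusted p = 0.00232, edgeR). TNFRSF11A (RANK), the receptor of RANK ligand on osteoclast precursors, had 21, 36 and 37 counts in Control and 35, 92 and 85 in SRRM4 KO. It was called higher with a log2FC of 1.10 ± 0.38 (SE, edgeR adjusted p = 0.0319), but the groups overlapped, and it was not called in 4 of the 6 fits that left out a library, with adjusted p = 0.0803 without Control replicate 1, 0.0508 without Control replicate 3, 0.132 without SRRM4 KO replicate 2 and 0.13 without SRRM4 KO replicate 3.

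LTBR (lymphotoxin beta receptor), TNFRSF14 (HVEM) and TNFRSF12A (Fn14, the receptor of TWEAK) were abundant and did not pass. LTBR was at 169 ± 17.1 and 163 ± 8.55 CPM, TNFRSF14 at 56.1 ± 7.81 and 58.9 ± 5.83 CPM, and TNFRSF12A at 183 ± 60.2 and 212 ± 34.8 CPM in Control and SRRM4 KO (SD, n = 3). The wide spread of TNFRSF12A came from Control replicate 1, with 2470 counts beside 4627 and 4939 in the other 2 Control libraries. Their adjusted p ran from 0.402 to 0.714, and the sign of each turned in 1 of the fits that left out a library.

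TNFRSF12A and TNFRSF10B had the highest mean levels per kilobase of the tested genes in both groups. In Control TNFRSF12A averaged 99.2 and TNFRSF10B 85.7 CPM per kilobase, but the Control libraries of TNFRSF12A ran from 61.7 to 120 and enclosed those of TNFRSF10B, 81.9 to 89.3, so these 2 were not ordered. That overlap rested on Control replicate 1, since in the other 2 Control libraries TNFRSF12A, at 116 and 120, was above TNFRSF10B, at 89.3 and 85.8 CPM per kilobase. In SRRM4 KO TNFRSF10B was above TNFRSF12A in each library, at 137.2 to 137.5 against 93.6 to 130 CPM per kilobase. TNFRSF1A (38.3) and TNFSF9 (35.5) followed in Control with overlapping libraries, whereas in SRRM4 KO TNFSF9 (76.9), FAS (43.8) and TNFRSF1A (39.3) followed in that order without overlap. TNFRSF10C moved from rank 20 to rank 10 of the 24 genes.

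The 250 bases before the RefSeq start (GRCh38.p14) of 2 called genes that rose and 2 that fell are shown. They let these genes be compared at their RefSeq starts, which are not all the annotated starts of the counted genes. Windows were on hand for 29 of the 44 genes. Capitals mark the motifs searched on both strands, the GC box GGGCGG, the AP-1 site TGANTCA, the TATA box TATAAA and the NF-kB consensus, and no capitals overlap between motifs.
TNFRSF21, higher, minus strand, chr6:47309906-47310155: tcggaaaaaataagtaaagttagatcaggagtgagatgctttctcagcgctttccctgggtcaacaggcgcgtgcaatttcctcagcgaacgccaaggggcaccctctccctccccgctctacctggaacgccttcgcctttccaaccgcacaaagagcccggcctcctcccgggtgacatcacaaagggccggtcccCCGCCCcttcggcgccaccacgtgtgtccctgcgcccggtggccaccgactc
TNFSF9, higher, plus strand, chr19:6530776-6531025: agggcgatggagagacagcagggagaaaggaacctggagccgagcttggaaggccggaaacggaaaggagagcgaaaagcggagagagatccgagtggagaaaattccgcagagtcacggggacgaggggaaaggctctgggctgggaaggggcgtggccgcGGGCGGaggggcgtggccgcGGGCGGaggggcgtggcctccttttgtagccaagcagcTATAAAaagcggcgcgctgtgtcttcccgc
TNFSF15, lower, minus strand, chr9:114792531-114792780: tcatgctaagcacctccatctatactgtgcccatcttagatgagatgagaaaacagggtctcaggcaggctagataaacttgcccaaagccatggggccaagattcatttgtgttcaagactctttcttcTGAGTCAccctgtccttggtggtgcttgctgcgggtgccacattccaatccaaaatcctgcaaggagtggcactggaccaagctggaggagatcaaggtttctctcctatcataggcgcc
TNFRSF25, lower, minus strand, chr1:6466174-6466423: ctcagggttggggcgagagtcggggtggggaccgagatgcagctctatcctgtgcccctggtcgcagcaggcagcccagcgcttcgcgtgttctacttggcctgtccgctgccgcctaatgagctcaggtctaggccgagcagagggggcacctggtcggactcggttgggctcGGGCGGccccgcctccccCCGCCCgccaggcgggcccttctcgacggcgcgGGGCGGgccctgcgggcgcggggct

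TNFSF9 held 2 GC boxes and a TATA box 30 to 25 bases before the RefSeq start, TNFRSF25 held 3 GC boxes and TNFRSF21 held 1. TNFSF15 held an AP-1 site 120 to 114 bases before the RefSeq start, which matches the pattern on both strands. The NF-kB consensus was found in none of these 4 windows. Of 35097 windows of the same length, 42.6% held the GC box, 6.57% the AP-1 site, 10.7% the TATA box and 5.20% the NF-kB consensus, so a GC box in 3 of 4 windows is a common feature. The windows differed in base composition, with the lowest share of G and C in TNFSF15 and the highest, 73.6%, in TNFRSF25. The bases just after the RefSeq start of TNFSF15 were not found in GENCODE 29 transcripts of the gene, while those of the other 3 were. The TNFSF15 window lies inside the annotated gene, 114784635 to 114806126 on the minus strand, and not before its start. The TNFSF9 window runs past the annotated gene start at 6530999, and its TATA box spans that start. The TNFRSF25 window overlaps the gene's first annotated bases, up to 6466195, and lies within PLEKHG5.

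Around the family, 90 further genes of the pathway were followed in 6 lists, of which 82 were tested, and 5 were called higher and 5 lower. These shares, beside 5.45% and 7.14% of all tested genes, are near the background. Of the receptors and ligands whose symbols fall outside the family rule, RELT, a receptor, was higher (6.21 ± 1.66 to 16.5 ± 2.68 CPM, SD, n = 3; log2FC 1.41, adjusted p = 2.88e-05, edgeR), and EDA and NGFR had too few counts to test.

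Of 29 adaptors and proximal kinases, all tested, TRAF1, an adaptor that NF-kB induces, was lower (log2FC -1.62, adjusted p = 0.00212, edgeR) and no gene was called higher, with a median of 0.20. On the adjusted p alone 8 were higher, 5 lower and 16 did not pass, which is near the 20.7% and 20.9% of all tested genes. None of the 10 NF-kB subunits and inhibitors was called (median 0.02), and of 16 genes of apoptosis and necroptosis execution none of the 15 tested was called (median 0.22). Since 5.45% of all tested genes were called higher and 7.14% lower, no call in lists this short says little about them. On the adjusted p alone 1 of the 10 was higher and none lower, and of the 15, 4 were higher and 1 lower. RIPK3, the kinase required for necroptosis, had no counts in any library.

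Genes known to respond to TNF through NF-kB were called in both directions, 4 higher and 3 lower, beside 5.45% and 7.14% of all tested genes. Of 22 tested among 27, CCL5 (log2FC 4.35), CXCL8 (3.06), MMP3 (2.62) and CXCL2 (2.32) were higher, and VCAM1 (-3.13), ICAM1 (-2.17) and PTX3 (-1.44) lower, with a median of -0.04. The 4 called higher are secreted chemokines and a matrix protease with group means of no more than 6.02 CPM in SRRM4 KO. They had at most 19 counts in any Control library, passed the filter only through SRRM4 KO, and were not tested when 10 counts were required in every library, so their number is no measure of the list. On the adjusted p alone 6 were higher and 5 lower, near the 20.7% and 20.9% of all tested genes. LIF, a cytokine at 37.7 CPM in Control and 72.7 CPM in SRRM4 KO, was just under the fold threshold (log2FC 0.95) and was called without Control replicate 2 or without Control replicate 3. Of those called lower, ICAM1, a leukocyte adhesion molecule, was much more abundant and had 3667, 4319 and 4440 counts in Control and 970, 964 and 949 in SRRM4 KO. MMP3 had 0, 1 and 7 counts in Control and 28, 13 and 12 in SRRM4 KO, and was not called without Control replicate 1, Control replicate 2 or SRRM4 KO replicate 1.

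Among 5 genes of ectodomain shedding, by which ADAM17 releases TNF and its receptors from the surface, TIMP3, an inhibitor of ADAM17, fell. It had 6930, 6700 and 6916 counts in Control and 622, 561 and 560 in SRRM4 KO, a log2FC of -3.62 ± 0.095 (SE, edgeR adjusted p = 8.58e-13). No other gene of the list was called, and 7.14% of all tested genes were called lower. On the adjusted p alone RHBDF2 was higher (log2FC 0.85, adjusted p = 0.000181, edgeR), with no overlap between the groups. RHBDF1 was lower (log2FC -0.34, adjusted p = 0.024, edgeR), with overlapping groups.

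**Figure D4:**
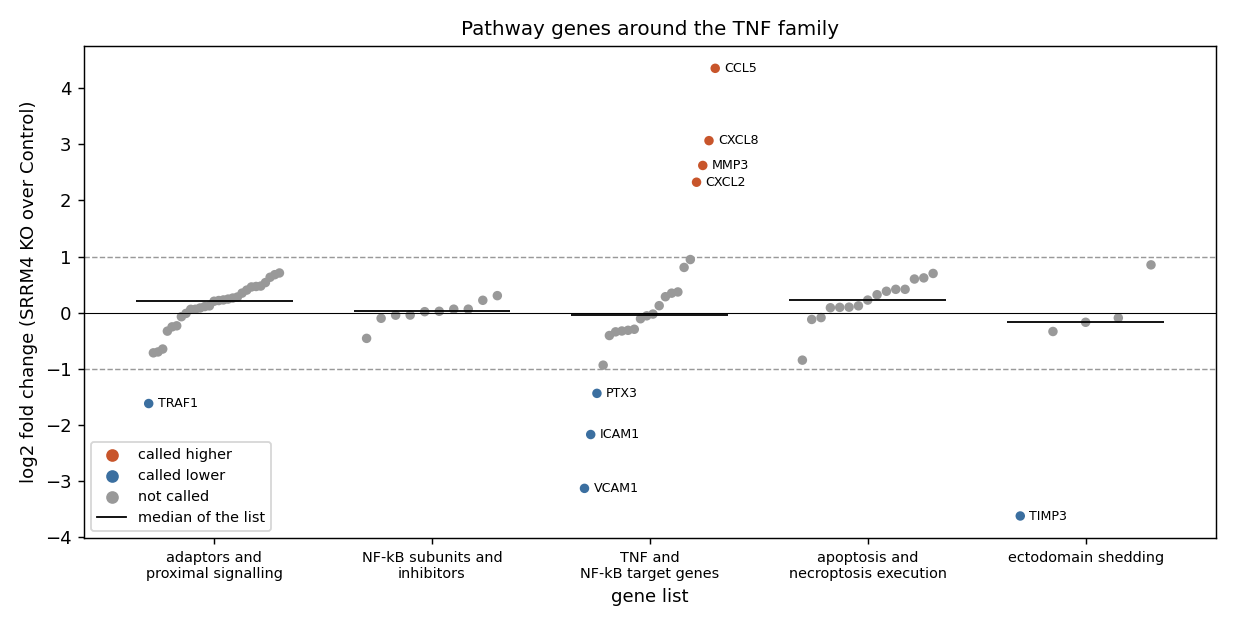
Log2 fold change of SRRM4 KO over Control for the tested genes of 5 lists of pathway genes, sorted within each list, with a black line at each median and dashed lines at the fold threshold of 1. Most genes are grey and lie within the dashed lines, and the called ones are named, 4 of them higher and 5 lower.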

How the data were processed

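The authors deposited raw read counts per gene for 6 libraries of non-stranded mRNA-seq, whole numbers without normalization. The submitters' processing notes name HISAT2 2.0.5, featureCounts 1.5.0-p3 and DESeq2; the genome build and how multimapping or overlapping reads were treated are not given in the sources used here. All 44 family genes had the same coordinates in GENCODE 29 (GRCh38). Samples were grouped by their titles. The fit covered the whole table, with edgeR 4.0.16 in R 4.3.3 (quasi-likelihood test after TMM scaling and filterByExpr, prior count 0.125), and p-values were adjusted by Benjamini-Hochberg across 15341 tested genes. SE is the absolute log2FC divided by the root of F. CPM per kilobase uses the gene length in the table. On simulated counts for SRRM4 KO against Control, 193 of 200 genes given a log2FC of 2 in size were recovered among 15036 tested, with 1 false call. The changed genes were drawn from the better-counted ones and were fewer than the 1932 called in the data. These figures therefore do not cover genes as scarce as TNFRSF9 or changes near the fold threshold. Every family gene could be named, as could genes overlapping one, and up to 6 called genes per direction of each list. Results are also given for LIF, RIPK3, EDA, NGFR, RHBDF1 and RHBDF2, list genes that were not called. The members and lists were chosen with earlier results of these data known. No list was tested as a set. Alternatives were other size factors, filters, a replicate block, each library left out, DESeq2 1.42.0, glmTreat and no fold change threshold.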

Additional observations from a re-analysis of the deposited data

How the results depend on the processing

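Requiring at least 10 counts in every library gave 5 family genes higher and 4 lower and 1 pathway gene higher, since TNFSF10, TNFRSF9, CCL5, CXCL2, CXCL8 and MMP3 were then not tested and TNFRSF10A went under the fold threshold (0.99). Testing against the threshold with glmTreat called 5 family genes higher and 2 lower, losing TNFRSF10A, TNFRSF11A, TNFSF9, TNFRSF25 and TNFSF13, and 3 pathway genes higher and 4 lower, losing RELT, MMP3 and TRAF1. Without a fold change threshold 13 family genes were higher and 4 lower, and 21 pathway genes were higher and 13 lower. DESeq2 and the fit without a filter each added CD27 to the lower genes, and other size factors changed no call of the family. With each library left out, the family calls ran from 6 to 8 higher and 3 to 4 lower, the pathway calls from 4 to 6 higher with 5 lower throughout, and the decoy share difference from 3.56 to 4.68 percentage points. It was 0.778 percentage points without division by gene length, where the groups overlapped. Among genes not called, the sign of the log2FC turned without Control replicate 3 for LTBR (-0.12 to 0.028 over the libraries left out) and without Control replicate 1 for TNFRSF12A (-0.042 to 0.37), TNFRSF14 (-0.042 to 0.14) and TNFRSF1A (-0.035 to 0.081). The same replicate numbers stand in both groups without saying what they mark. Same-numbered libraries did not deviate together (correlations of -0.086, 0.109 and -0.102), and with the replicate block the calls were again 8 higher and 4 lower in the family and 5 higher and 5 lower in the pathway lists.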
